A study of Homo sapiens with 18 samples.

Results

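Regions that carried both H3K4me3 and H3K27me3 in V16D/H19 cells, but not in V16D/CTL cells, are described here. The 6 H3K4me3 peak lists were merged into 25373 regions. A group was taken to hold a mark at a region when at least 2 of its 3 lists for that mark had a peak overlapping it, and a region holding both marks was called bivalent. In all, 306 of the 25373 regions were bivalent in V16D/H19 and not in V16D/CTL. Of these, 214 gained H3K4me3 over H3K27me3 that both groups held, 83 gained H3K27me3 over H3K4me3 that both groups held, and 9 gained both marks. For comparison, 1131 regions were bivalent in both groups and 417 in V16D/CTL only. The members were selected on the presence of peaks in these same 12 lists, so the counts of lists are a description and carry no test.

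V16D is a castration-resistant prostate cancer line that was derived from LNCaP cells. In V16D/CTL the cells carried a control lentivector, and in V16D/H19 a lentivector overexpressing the lncRNA H19, with biological triplicates per group, and both groups were grown in RPMI1640 with fetal bovine serum. Chromatin of each replicate was immunoprecipitated for H3K4me3 and for H3K27me3, and an input library was sequenced beside them. Both groups are 1 transduced line and not tumours, the labels do not say whether cells were cloned after transduction, and the lists hold no measure of H19 RNA. The H3K4me3 lists held 20048 to 21934 peaks and the H3K27me3 lists 55060 to 72289 peaks, with the 3 V16D/CTL H3K27me3 lists at 55060, 69320 and 72289 and the 3 V16D/H19 lists at 56239, 62031 and 62879. The prostate luminal genes KLK2, KLK3, HOXB13, TMPRSS2, FOLH1, KRT8 and KRT18 each had a promoter H3K4me3 peak in all 6 lists. PTPRC, COL1A2, TP63 and KRT5, which mark leukocytes, fibroblasts and basal cells, had one in 0 of 6. COL1A1, also a fibroblast gene, had peaks of both marks in all 6 lists of each, and PECAM1 was not analysed here.

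H3K4me3 is found at promoters that are active or ready for transcription, and H3K27me3 is written by the Polycomb complex PRC2 at genes kept silent. Promoters with both marks were first described in embryonic stem cells, where they lie largely at developmental regulators and are CpG-rich. As development proceeds, such promoters commonly resolve to a single mark. In chromatin from a population of cells, overlapping peaks do not show that both marks sit on the same chromosome copy, and fewer marked cells cannot be told apart from less mark per cell.

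The promoters below show how the CpG content of start sites differed among members. For gains of H3K4me3 and of H3K27me3, those of the 3 genes ranked highest below by fold over input are shown, with the exception of MSI1, which is named only. Each is the 250 bases before a RefSeq start on GRCh38.p14, written 5′ to 3′ on the strand of the gene, with each CG in capitals. The first 3 belong to regions that gained H3K4me3: SMOC1 (chr14:69879166-69879415, plus strand), ACHE (chr7:100896130-100896379, minus strand) and ATP2B2 (chr3:10708117-10708366, minus strand). The SMOC1 stretch lay inside its region, whereas the ACHE and ATP2B2 stretches lay 221 and 145 bases outside theirs. The ACHE stretch precedes another start than the one inside the region.
SMOC1: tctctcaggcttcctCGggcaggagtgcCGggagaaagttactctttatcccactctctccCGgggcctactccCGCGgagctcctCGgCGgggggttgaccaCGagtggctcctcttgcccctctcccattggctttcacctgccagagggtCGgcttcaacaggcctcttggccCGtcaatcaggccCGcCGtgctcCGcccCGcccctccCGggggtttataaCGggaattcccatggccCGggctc
ACHE: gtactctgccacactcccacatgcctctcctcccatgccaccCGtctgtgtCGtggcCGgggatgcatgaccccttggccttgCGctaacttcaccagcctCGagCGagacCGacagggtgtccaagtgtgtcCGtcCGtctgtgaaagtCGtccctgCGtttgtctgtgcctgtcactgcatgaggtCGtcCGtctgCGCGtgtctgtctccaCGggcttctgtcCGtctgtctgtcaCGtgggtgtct
ATP2B2: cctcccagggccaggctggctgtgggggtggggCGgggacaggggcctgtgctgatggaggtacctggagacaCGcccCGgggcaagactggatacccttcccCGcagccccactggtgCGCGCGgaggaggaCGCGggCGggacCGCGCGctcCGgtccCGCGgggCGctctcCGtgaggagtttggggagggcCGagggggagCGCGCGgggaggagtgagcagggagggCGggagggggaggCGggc
The next 3 belong to regions that gained H3K27me3, and all lay inside their regions: SLC22A4 (chr5:132294144-132294393, plus strand), NR2F1 (chr5:93582972-93583221, plus strand) and FIGN (chr2:163736009-163736258, minus strand).
SLC22A4: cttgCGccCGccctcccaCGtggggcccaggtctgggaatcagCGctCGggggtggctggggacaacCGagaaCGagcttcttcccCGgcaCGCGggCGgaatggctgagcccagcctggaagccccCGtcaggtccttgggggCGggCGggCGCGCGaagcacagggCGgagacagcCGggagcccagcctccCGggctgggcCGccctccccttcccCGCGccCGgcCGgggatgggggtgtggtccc
NR2F1: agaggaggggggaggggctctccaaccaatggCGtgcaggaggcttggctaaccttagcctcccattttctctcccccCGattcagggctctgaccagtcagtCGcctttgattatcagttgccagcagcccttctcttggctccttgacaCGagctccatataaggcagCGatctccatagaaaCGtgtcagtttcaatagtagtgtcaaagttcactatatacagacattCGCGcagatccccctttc
FIGN: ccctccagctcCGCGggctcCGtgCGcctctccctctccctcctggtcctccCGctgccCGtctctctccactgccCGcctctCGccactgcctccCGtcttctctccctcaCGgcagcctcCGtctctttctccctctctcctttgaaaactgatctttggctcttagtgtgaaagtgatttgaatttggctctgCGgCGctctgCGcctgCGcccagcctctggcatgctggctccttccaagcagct
These stretches held 17, 18 and 24 CG pairs in SMOC1, ACHE and ATP2B2, and 25, 8 and 15 in SLC22A4, NR2F1 and FIGN. NR2F1 had the lowest GC content of the 6, at 52.4%, with an observed over expected CpG ratio of 0.47, and ATP2B2 the highest, at 76.4%. SMOC1 held a TATAAA and a CCAAT match, both on the strand opposite to the one printed. NR2F1 held a CCAAT match on the printed strand.

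Gains of H3K4me3 and gains of H3K27me3 were unequal in number, in opposite directions. Among the 1595 regions where both groups held H3K27me3, 214 gained H3K4me3 in V16D/H19 and 24 lost it. Over all 25373 regions the corresponding numbers were 1564 (6.16%) and 1045. Among the 17239 regions where both groups held H3K4me3, 83 gained H3K27me3 in V16D/H19 and 376 lost it, and over all regions 105 (0.414%) gained it and 487 lost it. When the lists of a mark were cut to equal length, the numbers were 187 gains and 29 losses of H3K4me3, and 79 gains and 339 losses of H3K27me3. Leaving out a library moved these counts in part by construction, because a group left with 2 lists needs a peak in both. Without V16D/H19 replicates 1, 2 and 3 the gains of H3K4me3 fell from 214 to 118, 103 and 162, beside 71, 64 and 29 losses. Without V16D/CTL replicates 1, 2 and 3 they rose to 295, 271 and 265, beside 10, 13 and 12 losses. For H3K27me3 there were 138, 164 and 168 gains beside 261, 191 and 191 losses without V16D/CTL replicates 1, 2 and 3. The excess of losses was thus small without replicate 2 or 3. The library left out and the stricter rule for its group cannot be told apart here. Without V16D/H19 replicates 1, 2 and 3 there were 44, 32 and 36 gains beside 505, 532 and 541 losses.

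**Figure D1:**
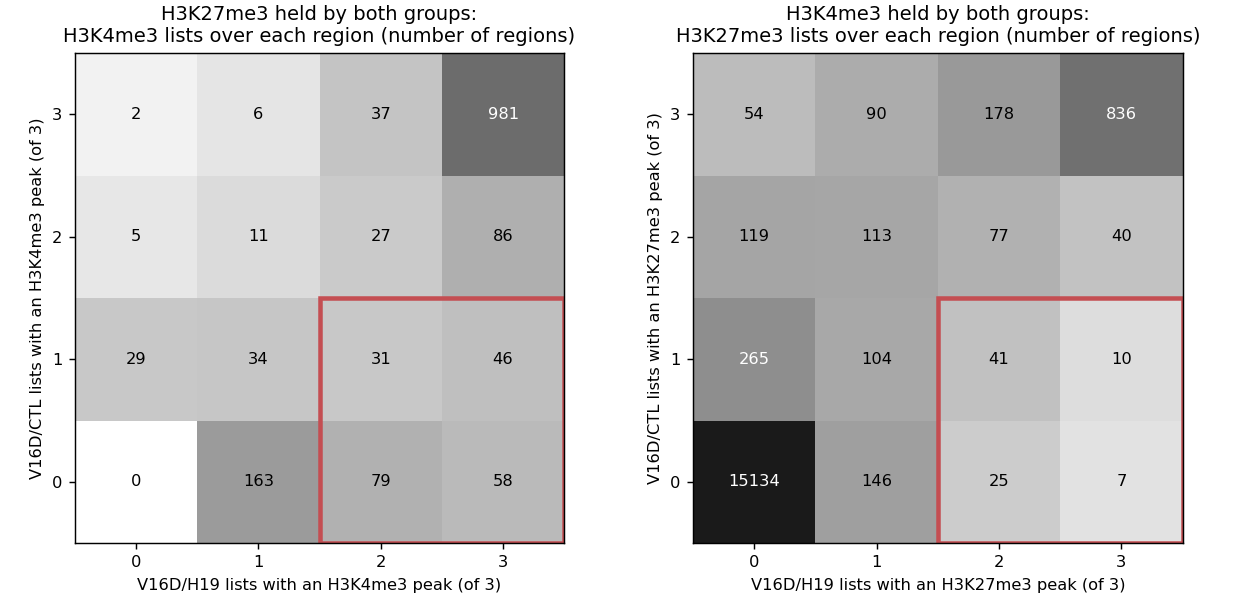
Number of regions by how many of the 3 V16D/H19 lists (horizontal axis) and the 3 V16D/CTL lists (vertical axis) had a peak, for H3K4me3 where both groups held H3K27me3 (left) and for H3K27me3 where both groups held H3K4me3 (right). Darker cells hold more regions on a log scale, and the red frames enclose the 214 regions that gained H3K4me3 and the 83 that gained H3K27me3.

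The members lay close to the rule's threshold to different extents. Of the 214 regions that gained H3K4me3, 58 went from 0 V16D/CTL lists to all 3 V16D/H19 lists. Among all 1564 merged regions that gained H3K4me3, with or without H3K27me3, 187 did so (0.737% of all 25373 regions). As the members were chosen for a gain, a share above that of all regions follows from the rule. Another 79 went from 0 to 2 lists, 46 from 1 to 3 and 31 from 1 to 2. Of the 83 that gained H3K27me3, 7 went from 0 to 3 lists, while 25 went from 0 to 2, 10 from 1 to 3 and 41 from 1 to 2. These 7 were the only such regions among the 105 that gained H3K27me3 (0.0276% of all 25373 regions), so that share is not a separate background. At the threshold for H3K4me3, the 31 regions just inside (1 and 2 lists) had a median peak fold over input of 5.37 in V16D/CTL and 5.71 in V16D/H19. The 34 regions just outside with 1 list in each group had 4.82 and 5.19, and the 27 with 2 lists in each had 5.06 and 6.05. For H3K27me3 the 41 regions just inside had 3.42 and 3.27, the 104 with 1 list in each group 3.43 and 3.31, and the 77 with 2 lists in each 3.60 and 3.41. Members and non-members next to the threshold therefore had peaks of similar fold over input.

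Among regions that gained H3K4me3, 33 lay within 1 kb of a protein-coding start and had the mark in 0 V16D/CTL and 3 V16D/H19 lists. The 10 with the highest mean H3K4me3 fold over input in V16D/H19 are given here. Fold over input is the value listed for a called peak relative to the input of the same replicate. Where several peaks of a list overlapped a region, the highest was taken. For H3K27me3, called in broad mode, the value belongs to a peak that can be wider than the region. Values are in the order of V16D/H19 replicates 1, 2 and 3. SMOC1, a secreted matrix protein that antagonises BMP signalling, had 8.34, 8.87 and 7.38. ACHE, the enzyme that hydrolyses acetylcholine at synapses, had 9.30, 8.34 and 6.50. ATP2B2, a calcium pump of the plasma membrane, had 6.98, 9.32 and 7.25. These 3 regions had a peak in no V16D/CTL H3K4me3 list, and the 3 V16D/H19 libraries were within 3 units of each other. FGF5, a fibroblast growth factor, had 6.85, 9.76 and 6.80. KCNB2, a voltage-gated potassium channel, had 6.92, 7.95 and 8.50. MGAT3, the enzyme that adds the bisecting sugar of N-glycans, had 8.14, 9.22 and 5.999. No library was highest at all of these genes. WNT6, a WNT ligand, had 11.1, 7.08 and 3.97, the widest spread of the 10 together with PROKR2, a receptor for prokineticins, at 5.08, 10.8 and 5.62. CACNA1A, the pore of P/Q-type calcium channels that trigger transmitter release, had 5.44, 8.51 and 7.93. SGCD, a sarcoglycan of the muscle membrane complex, had 8.72, 4.53 and 7.93. The replicates of V16D/H19 thus differed by over 2-fold at WNT6 and PROKR2.

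H3K27me3 was present at these 10 regions in all 6 lists. At FGF5 its fold over input was 4.92, 4.91 and 4.95 in V16D/CTL vs. 4.20, 4.28 and 4.44 in V16D/H19, and at MGAT3 it was 5.05, 5.07 and 5.48 vs. 3.85, 4.38 and 3.93. At both genes every V16D/H19 value lay below every V16D/CTL value, as was also the case at KCNB2, WNT6 and PROKR2. At ACHE the values were 5.53, 4.65 and 5.34 vs. 5.40, 4.68 and 4.27, and at SGCD 4.74, 4.65 and 3.97 vs. 4.73, 4.20 and 5.32, so there the groups overlapped, as they did at SMOC1, ATP2B2 and CACNA1A. In all, 5 of the 10 regions had non-overlapping, lower H3K27me3 in V16D/H19, and of all 1201 merged regions with H3K27me3 in all 6 lists 27.6% did. Among the 176 regions gaining H3K4me3 that had H3K27me3 in all 6 lists, 43 (24.4%) did, close to that background.

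**Figure D2:**
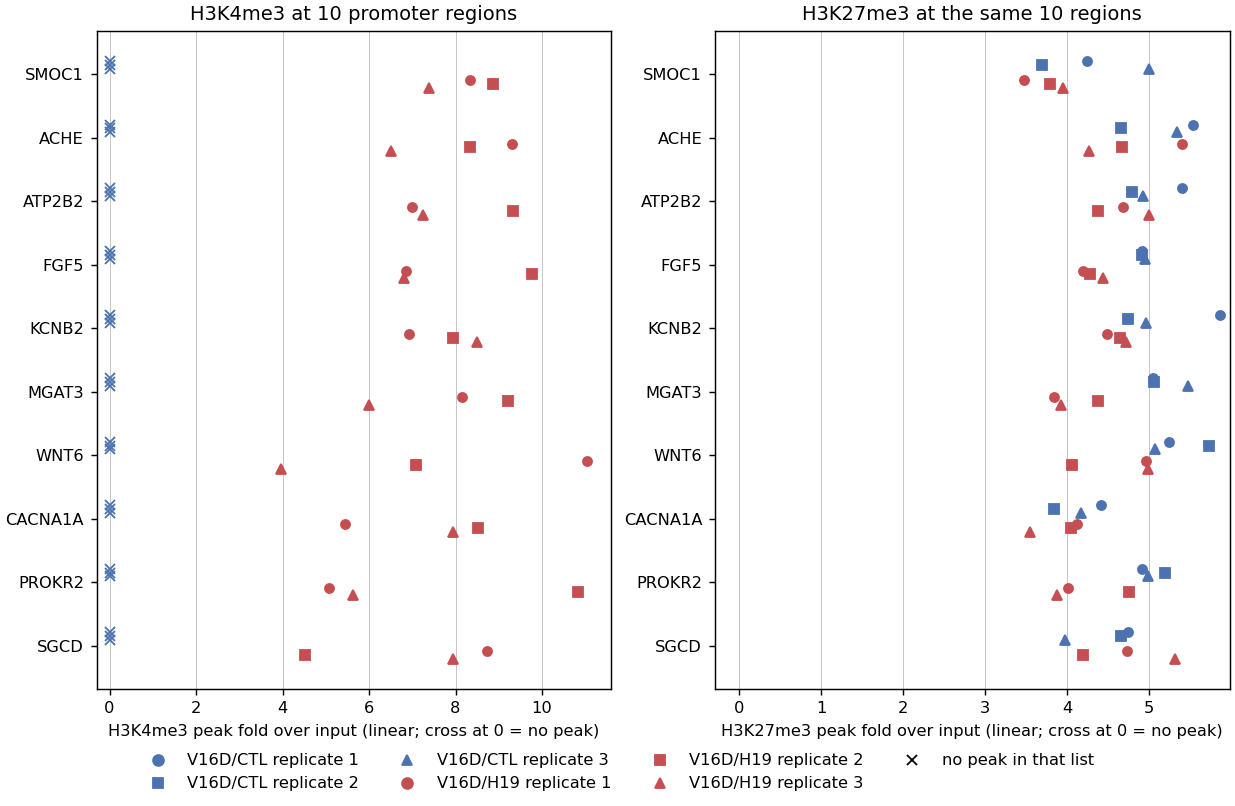
Fold over input of the H3K4me3 peak (left) and the H3K27me3 peak (right) in each library, on linear axes, at the 10 promoter regions with the highest H3K4me3 among those going from 0 to 3 lists. Symbols mark replicates and colours the groups. A cross at 0 means that the list had no peak there, as in all 3 V16D/CTL H3K4me3 lists at each gene.

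The H3K4me3 peaks that appeared were low and narrow. Over the 214 regions, a peak was present in 186, 205 and 141 of them in V16D/H19 replicates 1, 2 and 3, and in 25, 16 and 36 in V16D/CTL. The median fold over input of the peaks present was 5.81, 5.67 and 5.57 in V16D/H19, at or above only 16.2% to 20.8% of all peaks in the same lists. In the 981 regions bivalent in both groups with an H3K4me3 peak in all 6 lists, the medians were 14.9, 16.3 and 13.3 in V16D/H19. The merged regions that gained H3K4me3 had a median width of 539 bases (quartiles 414 and 699), vs. 1164 bases for those bivalent in both groups and 1336 bases for those gaining H3K27me3. V16D/H19 replicate 3 had the shortest of the 6 H3K4me3 lists, and was the library without a peak in 73 of the 110 regions that had the mark in 2 V16D/H19 lists. The part of list length in these counts was not tested at single regions. The widest members that gained H3K4me3 were an intergenic region on chromosome 10 (1622 bases) and regions at ST6GAL2 (1511 bases, a sialyltransferase), within CREB5 (1379 bases, a transcription factor), and at KCNA1 (1328 bases, a potassium channel) and NCAM1 (1129 bases, a neural cell adhesion molecule that is used as a neuroendocrine marker).

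H3K27me3 over the regions that gained H3K4me3 was higher and broader than over most H3K27me3 peaks. In V16D/CTL its median fold over input was 4.89, 4.74 and 4.83, at or above 97.7% to 98.3% of all H3K27me3 peaks of the same lists, and in V16D/H19 it was 4.34, 4.31 and 4.44. To compare groups on equal regions, the 176 members with an H3K27me3 peak in all 6 lists were used. There the medians were 4.97, 4.90 and 5.04 in V16D/CTL vs. 4.47, 4.41 and 4.57 in V16D/H19, and the median widths of the peaks were 3358, 3687 and 3911 bases vs. 2726, 2803 and 3039 bases. The 3 libraries of each group did not overlap in either measure. In the 836 such regions bivalent in both groups, the widths were 2426, 2906 and 2904 bases vs. 1740, 1941 and 1973 bases. The mean fold over input was lower in V16D/H19 in 138 of the 176 regions (78.4%), vs. 713 of 836 (85.3%) of the regions bivalent in both groups and 1014 of 1201 (84.4%) of all merged regions with an H3K27me3 peak in all 6 lists. The lower H3K27me3 in V16D/H19 was thus shared with the bivalent regions as a whole.

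Of the 214 regions that gained H3K4me3, 109 (50.9%) lay within 1 kb of a protein-coding start, 60 lay elsewhere in a gene and 45 lay between genes. The 109 promoter regions covered 109 genes, and 58 of the regions (53.2%) had a gene of at least 1 of 16 families defined by gene symbol. The same share was 34.9% of 793 promoter regions bivalent in both groups, 24.7% of 247 bivalent in V16D/CTL only and 14.8% of all 11631 promoter regions. The families were chosen with earlier results of these data known, and the shares are descriptions without a test.

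Ion channels formed the most frequent family, with 11 of the 109 promoter regions (10.1%), vs. 4.04% of those bivalent in both groups. Beside KCNB2, CACNA1A and KCNA1 these were the potassium channel genes KCNA6, KCNA7, KCNH5, KCNJ6, KCNK13 and KCNQ3, the sodium channel gene SCN9A and the calcium channel gene CACNA1E. KCNA6 had H3K4me3 at 5.81, 7.59 and 5.57 in the V16D/H19 replicates and no peak in V16D/CTL. Neurotransmitter receptors had 4 regions (3.67% vs. 2.77% of those bivalent in both groups), at GRIN2B and GRIN3B, which encode NMDA receptor subunits, GABRA2, a GABA receptor subunit, and ADRA1D, an adrenergic receptor. GRIN2B (chr12:13980622-13981615) had 5.81, 5.67 and 5.02, and GABRA2 had 4.35, 5.96 and 4.74, with no peak in V16D/CTL at either gene. ADRA1D had a peak of 4.42 in V16D/CTL replicate 3, within the range of its V16D/H19 values (4.65, 5.08 and 3.97).

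Synaptic and neuroendocrine genes had 7 regions (6.42% vs. 3.40%). DLGAP3, a scaffold of the postsynaptic density, had the highest H3K4me3 of the family at 10.5, 8.13 and 15.3 in V16D/H19, with a peak of 4.16 in V16D/CTL replicate 2. BRINP2 (8.19, 10.9 and 3.65), STMN3, a microtubule regulator of neurons (6.74, 5.03 and 10.0), and SYT14, a synaptotagmin (5.30, 7.59 and 5.50), followed. SYT14 was the only gene of these 4 without a V16D/CTL peak. The V16D/CTL peaks of BRINP2 (4.96, replicate 1) and STMN3 (6.45, replicate 3) lay within the range of their V16D/H19 values. NCAM1 was marked in V16D/H19 replicates 1 and 2 (4.82 and 7.06) and in V16D/CTL replicate 1 (6.25), so its gain rested on a difference of 1 list.

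Cadherins and protocadherins had 7 regions (6.42% vs. 1.13%), all with 0 V16D/CTL lists. CDH2, CLSTN2 and PCDHA1 had H3K4me3 in 3 V16D/H19 lists, and CDH13, DCHS2, PCDH8 and PCDHAC1 in 2. CDH2 (chr18:28177627-28178286), the N-cadherin of neural and mesenchymal cells, had 9.30, 3.40 and 5.10 in V16D/H19. The protocadherin alpha promoters lie in a cluster on chromosome 5 and are similar in sequence, so reads between them may be uncertain. WNT ligands had 3 regions, at WNT6, WNT11 and WNT3A. WNT11 had 8.06, 6.78 and 9.07 in V16D/H19 and 4.06 in V16D/CTL replicate 1, and WNT3A had 4.12, 9.20 and 4.73 and 6.98 in V16D/CTL replicate 3. The WNT11 values of V16D/H19 lay above its V16D/CTL peak, and those of WNT3A lay on both sides of it.

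Growth factors and their receptors included FGF5, FGF10 and FGF19, and of these 3 FGF5 alone had all 3 V16D/H19 lists. FGF10 had 4.22 and 4.46 in V16D/H19 replicates 1 and 2, both below its 5.41 in V16D/CTL replicate 1. The TGF-beta and BMP pathway had GDF10 and CHRDL2, each with 1 V16D/CTL peak. That of GDF10 (5.52, replicate 1) lay within the range of its V16D/H19 values (6.16, 6.78 and 5.02). That of CHRDL2 (6.02, replicate 3) lay above its V16D/H19 values (5.59, 5.42 and 5.84). Matrix genes had 7 regions (6.42% vs. 2.65%). ACAN, the core protein of aggrecan, led them with 10.5, 10.2 and 7.80 in V16D/H19 and 4.83 in V16D/CTL replicate 3, and the others lay at COL4A1 and COL4A2 (which share a promoter), COL24A1, BCAN, MMP24, ADAMTS19 and ADAMTSL5. G protein-coupled receptors outside the transmitter list had PROKR2 and LGR6, and axon guidance had EPHA8. LGR6 had 3.92 and 4.64 in V16D/H19 replicates 2 and 3, both below its 7.10 in V16D/CTL replicate 3.

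Among transcription factors, homeobox genes had 2 regions (BARHL1 and PROX1, 1.83% vs. 4.16% of those bivalent in both groups), and the forkhead, SOX and T-box families had FOXF1 (0.917% vs. 2.52%). The bHLH and zinc finger fate factors had 4 (3.67% vs. 3.28%), among them PRDM16, GATA5 and FEZF1. PRDM16, a zinc finger factor, had 3.57, 7.50 and 6.69 in V16D/H19 at its promoter, and a separate member 5204 bases upstream had 5.27, 5.42 and 5.95, with no V16D/CTL peak at either. ZNF-named genes had ZNF385D and ZNF521, and the 20 listed prostate luminal genes had none.

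**Figure D3:**
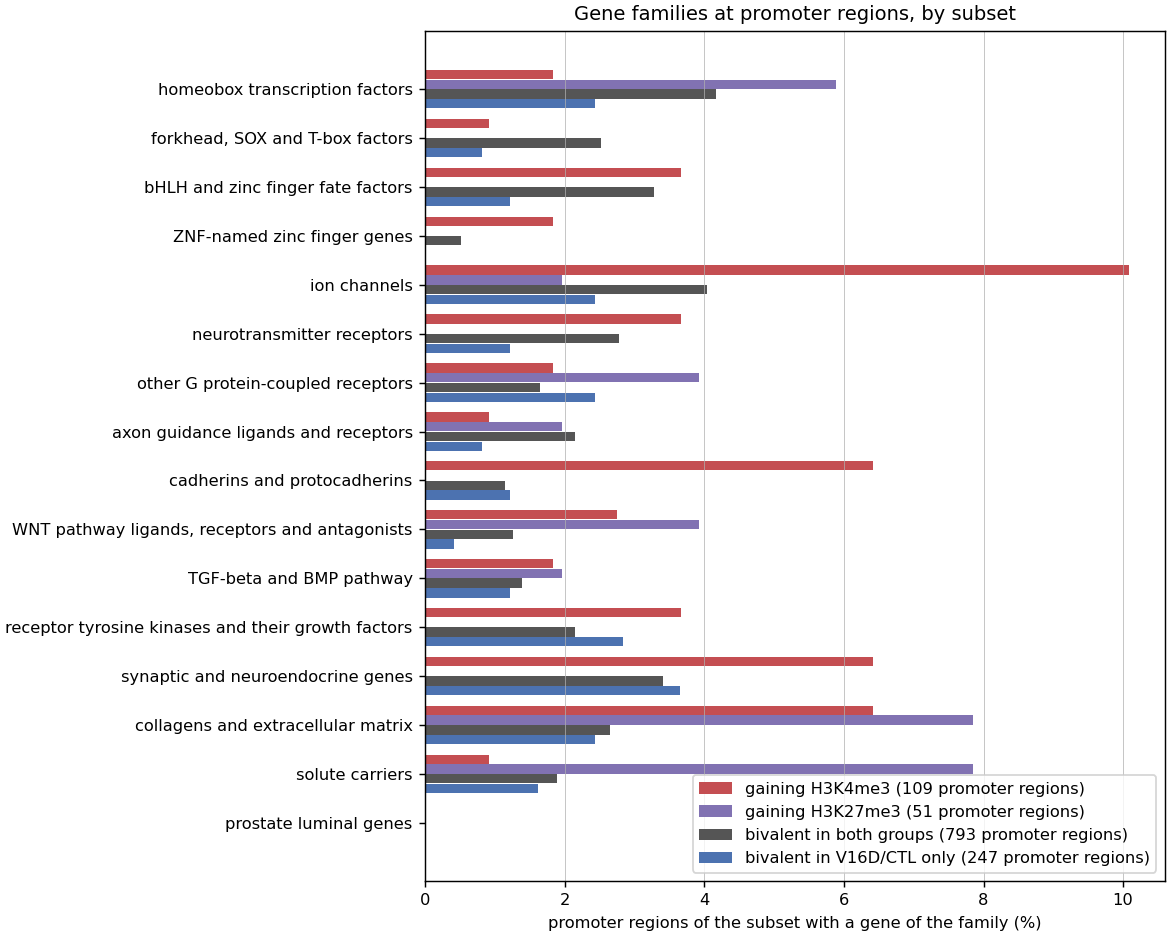
Share of the promoter regions of each subset that had a gene of each family (horizontal axis, percent, starting at 0), for regions gaining H3K4me3, gaining H3K27me3, bivalent in both groups and bivalent in V16D/CTL only. Ion channels reached 10.1% of the 109 promoter regions that gained H3K4me3, and solute carriers 7.84% of the 51 that gained H3K27me3.

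The 83 regions that gained H3K27me3 were of another kind. They had H3K4me3 in both groups. The median folds over input were 19.3, 19.1 and 18.4 in V16D/CTL vs. 17.8, 19.8 and 18.0 in V16D/H19. These medians were at or above 40.2% to 44.2% of all H3K4me3 peaks in the same lists. In the 75 with an H3K4me3 peak in all 6 lists, the mean fold was lower in V16D/H19 in 39 (52.0%), vs. 46.2% of all 15811 such regions. The H3K27me3 that appeared lay slightly below the middle of the V16D/H19 lists, with a median fold over input of 3.38, 3.30 and 3.27. These medians were at or above 45.1%, 44.7% and 38.8% of all H3K27me3 peaks in the same lists. The median −log10 q was 1.80, 1.68 and 1.74, vs. 1.76, 1.72 and 1.78 over all peaks of those lists. The peaks present covered a median of 22.6%, 22.2% and 20.9% of the region. H3K27me3 peaks of the regions bivalent in both groups covered 56.6%, 59.0% and 57.2% in the same lists. The gained peak was present in 54, 65 and 64 of the 83 regions in V16D/H19 and in 12, 18 and 21 in V16D/CTL.

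At promoters, 5 regions went from 0 to 3 H3K27me3 lists. SLC22A4, an organic cation transporter, had H3K27me3 at 3.78, 3.02 and 4.17 in V16D/H19 replicates 1, 2 and 3. MSI1, an RNA-binding protein of neural progenitors, had 3.42, 3.45 and 3.60. NR2F1, an orphan nuclear receptor, had 3.99, 3.29 and 2.89. None had a V16D/CTL peak, and these values lay on both sides of the median of all peaks in the H3K27me3 lists, which was 3.35 to 3.53. FIGN, a microtubule-severing ATPase, had 3.30, 2.96 and 3.76. EPHA7 (chr6:93416256-93421072), an ephrin receptor of axon guidance, had 2.84, 3.56 and 3.61. EPHA7 was the widest member, at 4817 bases, and its H3K4me3 was 35.9, 34.8 and 30.4 in the V16D/CTL replicates, all above the 18.6, 25.7 and 21.0 of V16D/H19. The H3K4me3 groups overlapped at the other 4 genes, such as MSI1 (46.6, 39.5 and 64.4 vs. 46.5, 70.5 and 38.2) and NR2F1 (32.0, 52.6 and 47.7 vs. 37.5, 49.9 and 34.7). How often the groups separate in H3K4me3 over all regions was not counted, so the separation at EPHA7 has no background to be read against.

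**Figure D4:**
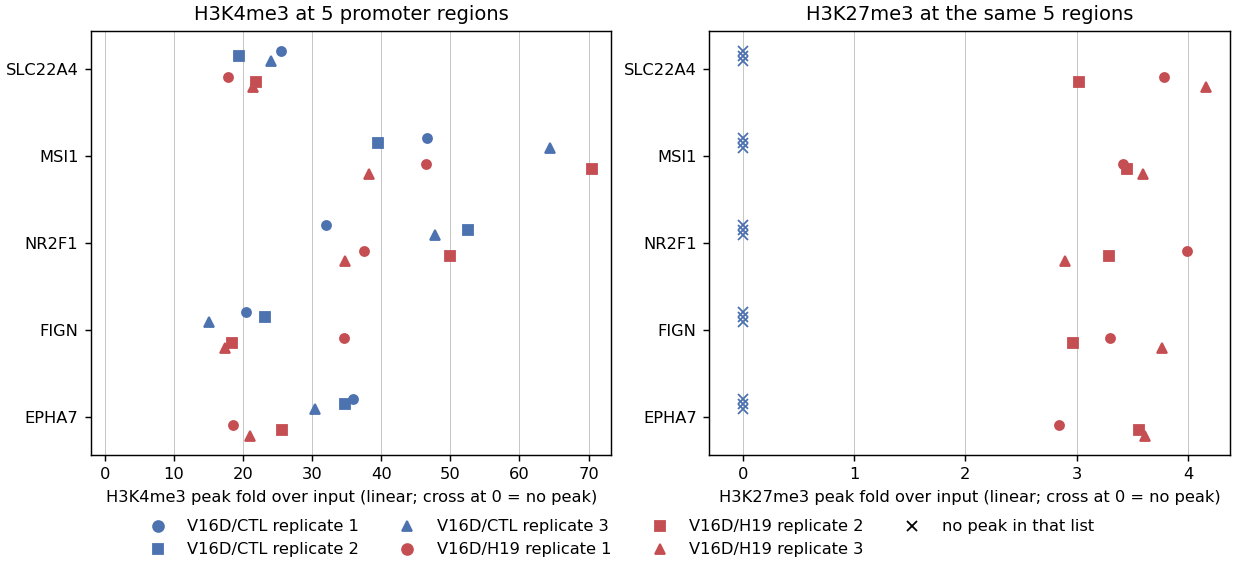
Fold over input of the H3K4me3 peak (left) and the H3K27me3 peak (right) in each library, on linear axes, at the 5 promoter regions going from 0 to 3 H3K27me3 lists. A cross at 0 means that the list had no peak. H3K4me3 was present in all 6 lists at each gene, and the gained H3K27me3 peaks lay between 2.84 and 4.17.

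Of the 83 regions that gained H3K27me3, 51 (61.4%) lay at a promoter, 17 elsewhere in a gene and 15 between genes. A gene of the 16 families was present at 18 of the 51 (35.3%). Solute carriers had 4 regions (7.84% vs. 1.89% of the promoter regions bivalent in both groups), among them SLC22A4, SLC45A4 and SLC9A5. Matrix genes also had 4, at the glypicans GPC1 and GPC5, FBN3 and MMP16. Homeobox genes had CUX1, HOXC8 and EN1, each with 1 V16D/CTL and 2 V16D/H19 lists. WNT pathway genes had FZD4, a receptor, and RSPO4, a secreted amplifier of the pathway. FZD4 had H3K27me3 at 3.04 and 3.14 in V16D/H19 replicates 1 and 3 and in no V16D/CTL list. RSPO4 had 2.99 and 2.81 in those replicates and 3.44 in V16D/CTL replicate 1, so its single V16D/CTL peak was the higher. TGFBR2, a TGF-beta receptor, KCNJ8, a potassium channel, and the receptors HRH3 and GPR161 were the other family members, together with EPHA7. The widest members after EPHA7 and NR2F1 were ADARB2 (3924 bases), CUX1 (3741 bases) and MMP16 (3682 bases).

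Whether each gain recurred was read in libraries whose peaks had not entered the rule that chose the region. The bounds of the merged regions were set with all H3K4me3 lists, so the left-out H3K4me3 libraries also helped to set them. The effect of this on the shares was not tested. The rule was applied to 2 replicate numbers of each group, asking for both V16D/H19 lists and at most 1 V16D/CTL list, and the gained mark was then looked up in the third. Regions chosen as gaining H3K4me3 (179, 154 and 214 with replicates 1, 2 and 3 left out) had H3K4me3 in 84.9%, 93.5% and 62.6% of cases in the left-out V16D/H19 library, and in 41.9%, 42.9% and 37.4% in the left-out V16D/CTL library. Over all merged regions the shares were 79.6%, 79.9% and 72.1% vs. 76.2%, 72.7% and 74.1%. The V16D/H19 share was the higher in 3 of 3 for the chosen regions. When V16D/CTL had to have the mark in 0 of the 2 lists, a choice added after seeing the data, the shares were 79.2%, 92.3% and 56.6% vs. 14.3%, 15.4% and 18.6%.

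Regions chosen as gaining H3K27me3 (81, 70 and 84) gave the opposite order. They had H3K27me3 in 43.2%, 58.6% and 57.1% of cases in the left-out V16D/H19 library and in 51.9%, 62.9% and 69.0% in the left-out V16D/CTL library, so the share was lower in V16D/H19 in 3 of 3. Over all merged regions the H3K27me3 shares were 6.66%, 7.10% and 7.055% vs. 7.64%, 8.75% and 8.63%, also lower in V16D/H19 in 3 of 3. With V16D/CTL at 0 of the 2 lists, 23, 17 and 21 regions remained and the order turned: 34.8%, 47.1% and 57.1% in V16D/H19 vs. 17.4%, 29.4% and 42.9% in V16D/CTL. Regions chosen the mirrored way, as losing H3K27me3 in V16D/H19, had it in 44.6%, 51.6% and 56.0% of the left-out V16D/H19 cases and 62.3%, 79.4% and 80.1% of the V16D/CTL cases. For mirrored losses of H3K4me3 (39, 47 and 17 regions) the shares were 82.1%, 89.4% and 35.3% vs. 87.2%, 63.8% and 58.8%, with no common direction. The 3 shares of each kind have libraries in common, so no test was made.

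**Figure D5:**
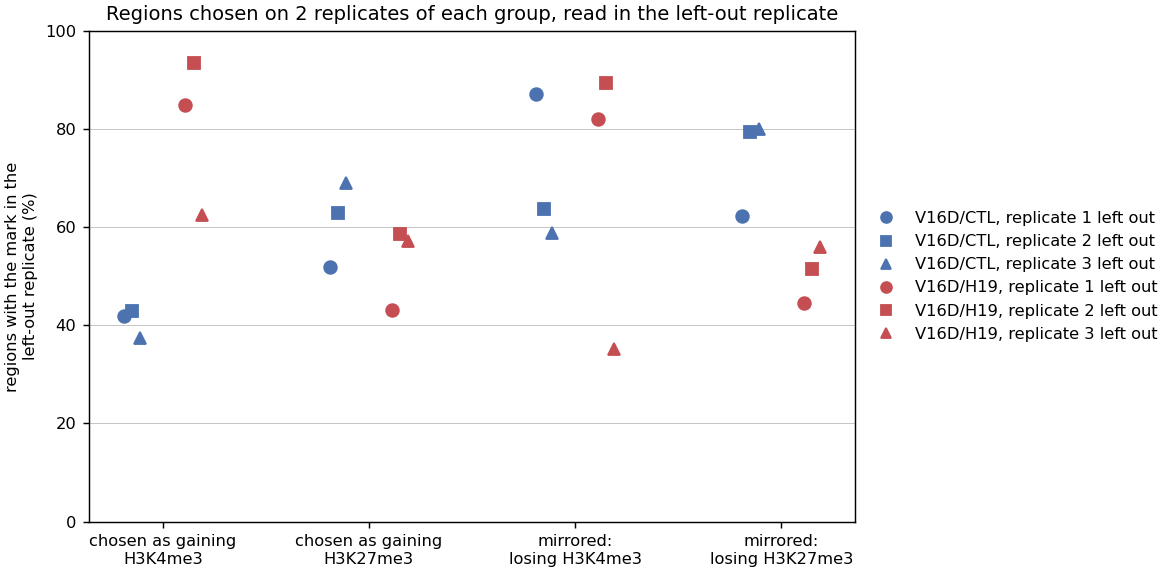
Share of regions with the gained or lost mark in the left-out library (vertical axis, percent, 0 to 100), for regions chosen on the other 2 replicates of each group. Red symbols are V16D/H19 and blue symbols V16D/CTL libraries, with the shape naming the replicate left out. For gains of H3K4me3 the red symbols (62.6% to 93.5%) lie above the blue ones (37.4% to 42.9%), and for gains of H3K27me3 each red symbol lies below the blue one of the same shape.

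The 9 regions that gained both marks were small and mostly away from promoters. Only 1 lay within 1 kb of a protein-coding start, at HR, a corepressor known from hair follicles, and the overlapping HRURF. It had H3K4me3 at 2.90 and 5.90 and H3K27me3 at 3.10 and 3.48 in V16D/H19 replicates 1 and 2, and no peak in any V16D/CTL list. Another 7 lay in gene bodies, among them regions in ANO3, NCKAP5, PTPRO, ATP6V1B1 and NRG1, and 1 lay on an unplaced contig. NCKAP5 had H3K4me3 at 6.15, 10.8 and 5.50 in V16D/H19 and 5.52 in V16D/CTL replicate 1. NRG1, a ligand of ERBB receptors, held the widest of the 9 (854 bases), 386300 bases from its start, with H3K4me3 at 5.81, 5.11 and 5.10 in V16D/H19 and in no V16D/CTL list.

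Group means of normalised reads, deposited by the authors as log2 values for sites that passed their own selection, covered some of the members. For H3K4me3 they covered 47 of the 214 regions that gained it, with the V16D/H19 mean above the V16D/CTL mean in all 47 (medians 4.61 and 2.40). The V16D/H19 mean was the higher in 134 of 169 (79.3%) of the covered regions bivalent in both groups, and in 23.8% of the 2001 merged regions covered. As the members were chosen for more H3K4me3 peaks in V16D/H19, the direction at the 47 is a description. At KCNB2 the authors' means were 0.51 in V16D/CTL and 3.91 in V16D/H19, at CDH2 0.72 and 4.05, at GABRA2 0.77 and 4.12, and at SMOC1 1.49 and 4.61. For H3K27me3 they covered 46 of the same 214 regions, with the V16D/H19 mean below in all 46 (medians 7.70 and 8.17), as at SMOC1 (6.98 vs. 7.56). This direction was near the background, since the mean was lower in 98.2% of the 512 merged regions covered. A site outside the selection has no value, so these counts describe the listed sites only. Of the 83 regions that gained H3K27me3, 5 had such a mean. It was higher in V16D/H19 at 3, including MSI1 (5.25 vs. 3.80) and EPHA7 (5.54 vs. 4.33), but lower at CUX1 (5.16 vs. 6.15) and EN1 (5.87 vs. 6.52), against the direction of their peak lists. In H3K4me3, 8 of the 83 had a mean and it was lower in V16D/H19 in all 8, as at EPHA7 (8.99 vs. 9.51) and NR2F1 (9.44 vs. 9.72), beside 76.2% of the merged regions covered.

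Taking the 306 members together, 161 (52.6%, 95% Wilson interval 47.0 to 58.1, counting error only) lay within 1 kb of a protein-coding start, vs. 70.1% of the regions bivalent in both groups, 59.2% of those bivalent in V16D/CTL only and 45.8% of all merged regions. The share depended on which starts were used: it was 44.8% with all starts of the RefSeq promoter table, 61.8% with genes of any kind and 62.4% within 5 kb. Members were found on every chromosome but Y, with 39 on chromosome 1 (12.8% of members vs. 9.61% of all merged regions), 27 on chromosome 2 (8.82% vs. 6.44%) and 25 on chromosome 8 (8.17% vs. 4.05%), and 5 lay on contigs outside the assembled chromosomes. An H3K4me3 region present in all 6 lists lay within 5 kb of 13.6% of the regions that gained H3K4me3, 15.7% of those that gained H3K27me3 and 9.64% of those bivalent in both groups.

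Promoter sequences of RefSeq were matched to 88 of the regions that gained H3K4me3 (110 sequences of 85 genes) and 47 of those that gained H3K27me3 (69 sequences of 49 genes), each sequence spanning 250 bases before to 50 after a start. Their median GC content was 68.5% and 69.0%, vs. 70.7% for promoters bivalent in both groups and 62.3% for all 22199 protein-coding promoters. The median number of CG pairs was 27 and 29, vs. 30 and 21, and the median observed over expected CpG ratio 0.80 and 0.83, vs. 0.83 and 0.74. Motifs were searched on both strands. Shares are given for the promoters that gained H3K4me3 and H3K27me3, vs. those bivalent in both groups and all promoters. The E-box CANNTG was found in 50.0% and 62.3%, vs. 56.1% and 65.1%, and its form CAGCTG, which the first also counts, in 10.0% and 10.1%, vs. 17.0% and 18.0%. The SOX motif ACAAT was found in 12.7% and 11.6%, vs. 13.0% and 21.5%, and CCAAT in 18.2% and 24.6%, vs. 25.8% and 34.7%. CCCTC was found in 92.7% and 84.1%, vs. 88.9% and 76.6%, and TATAAA in 4.55% and 8.70%, vs. 5.32% and 9.47%. For ACAAT and CCCTC the members were thus nearer to the promoters bivalent in both groups than to all promoters. The androgen receptor motif AGAACA was found in 10.0% (11 of 110) and 13.0% (9 of 69), vs. 5.21% and 11.7%, nearer to all promoters. The octamer ATTTGCAT was found in 0 of 110 and 1 of 69, vs. 1.22% and 1.66%. These are matches of letters in GC-rich stretches and not sites of a factor.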

How the data were processed

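H3K4me3 and H3K27me3 were profiled by ChIP-seq in 3 replicates each of V16D/CTL and V16D/H19, beside 6 input libraries. Groups and replicate numbers came from the sample titles. Peaks were called by the authors with MACS2 in every library, each against its matching input, in narrow mode for H3K4me3 and broad mode for H3K27me3. The build was hg38 in the submitters' processing notes, and the versions and the aligner were not given in the sources used here. For each peak the deposited lists hold a score, the −log10 p-value, the −log10 q-value and the fold over input, which is a linear ratio. The deposited DiffBind tables, annotated with ChIPseeker, give log2 group means of normalised reads, which were used as the authors' means, and fold changes, p-values and FDR, which were not used.

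Peaks were overlapped by at least 1 base with Python 3.11.15, numpy 2.4.6 and pandas 2.3.3. All peaks of the deposited lists were used, with no added filter on low values or on repeat sequence. The depth of the libraries was not used, so no peak does not mean no mark, and the number of peaks stands as the only measure of list size. A promoter was within 1 kb of the 5′ end of a protein-coding RefSeq gene on GRCh38.p14, with the strand from the RefSeq promoter table or, by symbol, from GENCODE (found for 19675 of 20037 genes). Exons on this build were not used, so positions are given as promoter, gene body or intergenic. The genome sequence given was of another build and was not used. Named regions were the 10 promoter members per kind with the highest mean fold over input among those going from 0 to 3 lists, 5 that gained both marks, up to 4 per gene family and the 5 widest. Further genes were named to complete small families, after their values were seen, and some members are not reported here. The members, gene families and rules were chosen with earlier results of these data known. The rule was tested on simulated lists. No test was run, because the members were selected on the same contrast. Alternatives covered peak thresholds, list length, overlap, the number of lists needed, region definition, promoter definition and each replicate left out.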

Additional observations from a re-analysis of the deposited data

How the results depend on the processing

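No paired analysis was possible because the counts here come from a rule over peak lists and not from a test, to which a replicate block could be added. Left-out libraries were set side by side by replicate number, as a description. The counts of 306 members (214 gaining H3K4me3, 83 gaining H3K27me3, 9 gaining both) stayed within 1.5 times with lists of equal length and with consensus regions of each group. With −log10 q of at least 2, 43 gained H3K27me3 and 4 both marks. With −log10 q of at least 5, 19 members remained, of which 13, 4 and 2 were of the 3 kinds. With peaks covering at least 25% of the region 46 gained H3K27me3, with peaks within 1 kb 130 gained H3K27me3 and 15 both, and with all 3 lists needed 53 gained H3K27me3. With the other group at 0 of 3 lists there were 171 members, of which 137, 32 and 2 were of the 3 kinds.

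Leaving out 1 replicate gave 137 to 461 members, 103 to 295 gaining H3K4me3, 32 to 168 gaining H3K27me3 and 2 to 26 gaining both. By construction, a group left with 2 lists needs a peak in both. The counts of members beyond 1.5 times were 461 without V16D/CTL replicate 2, and 166, 137 and 203 without V16D/H19 replicates 1, 2 and 3.

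In left-out libraries, the mean share for H3K4me3 was 39.6 percentage points higher in V16D/H19 than in V16D/CTL, and 59.95 with V16D/CTL at 0 of 2 lists. For H3K27me3 the difference was -8.28 and turned to 16.4 under that choice, which was added after seeing the data. The cause was not tested. With −log10 q of at least 5, 5 to 7 regions entered for H3K4me3, and for H3K27me3 no region was left with replicate 3 left out, so that setting gave no value. The share of members at a promoter moved from 52.6% to 62.4% within 5 kb, 61.8% with genes of any kind and 44.8% with all starts of the promoter table, the last added after seeing the data.

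Peaks of the gained H3K27me3 stood near the calling threshold, and the peak lists alone do not give the signal where no peak was called.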
